A study of Mus musculus with 7 samples.

Results

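The genes described here carry the NF-kappaB and tumour necrosis factor (TNF) receptor signalling pathway: 5 NF-kappaB subunits, their inhibitors, the kinases that release them, TNF receptors and adaptors, death and survival regulators, and proteins that switch the pathway off. They were chosen by name from a list of 39 pathway genes, matched to the gene symbols of the annotated array table, and 38 of the 39 were found among 18195 measured genes. The TNF receptor gene Tnfrsf1b, also listed, was not analysed here. Where a gene had several probe sets (only Cflar, with 3), the brightest on average over the 7 libraries was used. The cells were eosinophils that had been flow-sorted from lung tissue of the inbred mouse strain BALB/c, and their RNA was hybridised to microarrays. Of the libraries, 3 came from lungs challenged with OVA (ovalbumin, an egg white protein used as an allergen) and 4 from lungs challenged with saline. No other genotype, treatment, age or time is given in the labels used here, nor whether a library holds 1 animal or a pool, and the p-values below therefore reflect the scatter among these libraries alone, which may be technical.

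NF-kappaB is a family of paired transcription factors held in the cytoplasm by IkappaB proteins. When a TNF receptor, Toll-like receptor or interleukin-1 family receptor is engaged, adaptor proteins and ubiquitin ligases recruit the IkappaB kinase complex, which marks IkappaB for destruction, and the freed subunits enter the nucleus. Among the genes they switch on are their own inhibitors, so that Nfkbia and Tnfaip3 are textbook feedback genes of the pathway. In eosinophils the pathway is known for its part in cytokine release and in survival outside the blood.

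Levels are log2 values after robust multi-array averaging (RMA), in which 1 unit is a 2-fold step. They may be compared between libraries for 1 gene, not between genes. Differences are OVA minus saline, given with their standard error (SE). Calls were made with limma's moderated test over all 18195 genes, at an adjusted p below 0.05. At that threshold 5.3% of all genes were called higher and 1.17% lower. The median level of a library lay between 6.61 and 6.69 in OVA and between 6.62 and 6.72 in saline, and negative control probe sets had medians of 6.04 to 6.17 in OVA and 5.86 to 5.95 in saline. Of 14 eosinophil markers 4 were called higher and 3 lower, and their mean level was 10.49 to 10.82 in OVA libraries and 10.31 to 10.56 in saline libraries. The eotaxin receptor Ccr3 was at 11.84 in OVA and 11.97 in saline, and Siglecf at 10.17 in OVA and 9.34 in saline. Epx, which encodes eosinophil peroxidase, was at 9.26 in OVA but at 6.57 in saline, near the library median. The 3 called lower were Ear1, Ear2 and Ear6, with differences of -0.62, -0.48 and -0.96. Ear2 is also in the alveolar macrophage list that follows and is counted as lower there too. Of 20 alveolar macrophage markers 9 were called higher and 2 lower, and their mean level was 7.84 to 8.26 in OVA libraries and 6.82 to 7.19 in saline libraries. Within that list the largest rises were those of Chil3 (12.47 in OVA, 6.26 in saline) and Car4 (11.77 in OVA, 6.41 in saline), followed by Atp6v0d2, Itgax and Mrc1 with differences of 2.27, 2.07 and 2.06. Marco (5.91 in OVA, 6.10 in saline), Fabp4 (5.67 in OVA, 5.25 in saline) and Mertk (5.71 in OVA, 5.64 in saline) were near the negative controls and were not called. Of 11 neutrophil markers 3 were higher, of 14 monocyte and interstitial macrophage markers 1 and of 13 epithelial markers 2. Of 12 dendritic cell markers 1 was higher and of 10 B cell markers 1, with 0 lower in each of these lists. Their largest rises were those of Sftpc (epithelial), from 8.14 in saline to 10.67 in OVA, and Fn1 (monocyte), from 6.29 to 8.62. Itgae of the dendritic list came next (6.12 in saline, 8.36 in OVA). The mean level of the neutrophil list was 7.58 to 8.05 in OVA and 7.39 to 7.74 in saline, that of the epithelial list 7.44 to 7.55 in OVA and 7.06 to 7.44 in saline, and that of the monocyte list 6.89 to 7.13 in OVA and 6.81 to 6.89 in saline. For the dendritic list it was 6.46 to 6.60 in OVA and 6.28 to 6.33 in saline, and for the B cell list 6.56 to 6.78 in OVA and 6.48 to 6.56 in saline. No T cell, NK cell, mast cell, endothelial, fibroblast or erythroid marker was called by limma. At an unadjusted p under 0.05, 1 endothelial marker was higher, and 1, 1, 0, 2, 1 and 5 markers of these 6 lists were lower. Over all genes, 12.9% were higher and 7.84% lower at that threshold. The erythroid list had mean levels of 7.29 to 7.65 in OVA and 7.85 to 8.27 in saline, without overlap. For the fibroblast list they were 6.14 to 6.36 in OVA and 6.37 to 6.54 in saline, also apart. The mean levels of the T cell, NK cell, mast cell and endothelial lists overlapped between groups. The part of other cells in the differences below was not tested. Fewer cells of a type and less RNA per cell cannot be told apart in sorted bulk libraries.

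After OVA challenge, 8 of the 38 pathway genes were higher and 0 were lower, where 5.3% of all genes were called higher and 1.17% lower. Among the 8 were the inhibitor Nfkbia, the nuclear IkappaB gene Nfkbiz, the ubiquitin editor Tnfaip3 and the TNF-induced gene Tnfaip2. The rest were the kinases Map3k8 and Ripk2 and the survival genes Birc3 and Cflar. Of these 8, 5 differed by at least 2-fold, as did 320 of the 964 called higher among all 18195 genes. At an unadjusted p under 0.05, 14 were higher and 2 lower, where 12.9% of all genes were higher and 7.84% lower. Limma called 2 lower (Map3k14 and Ikbkb) after a second quantile normalization. In 14 of the 38 genes every OVA library lay above every saline library, against 11% of all genes, and in 3 every OVA library lay below, against 8.58%. The median difference of the 38 genes was 0.18, against -0.07 over all genes. Each of the 8 had a two-sided exact permutation p of 0.02857, the smallest that 3 against 4 libraries allow. The uncalled Nfkb1, Ikbkb and Birc2 had the same permutation p, so it does not set the called genes apart. It was also computed on the values that gave the calls.

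**Figure D1:**
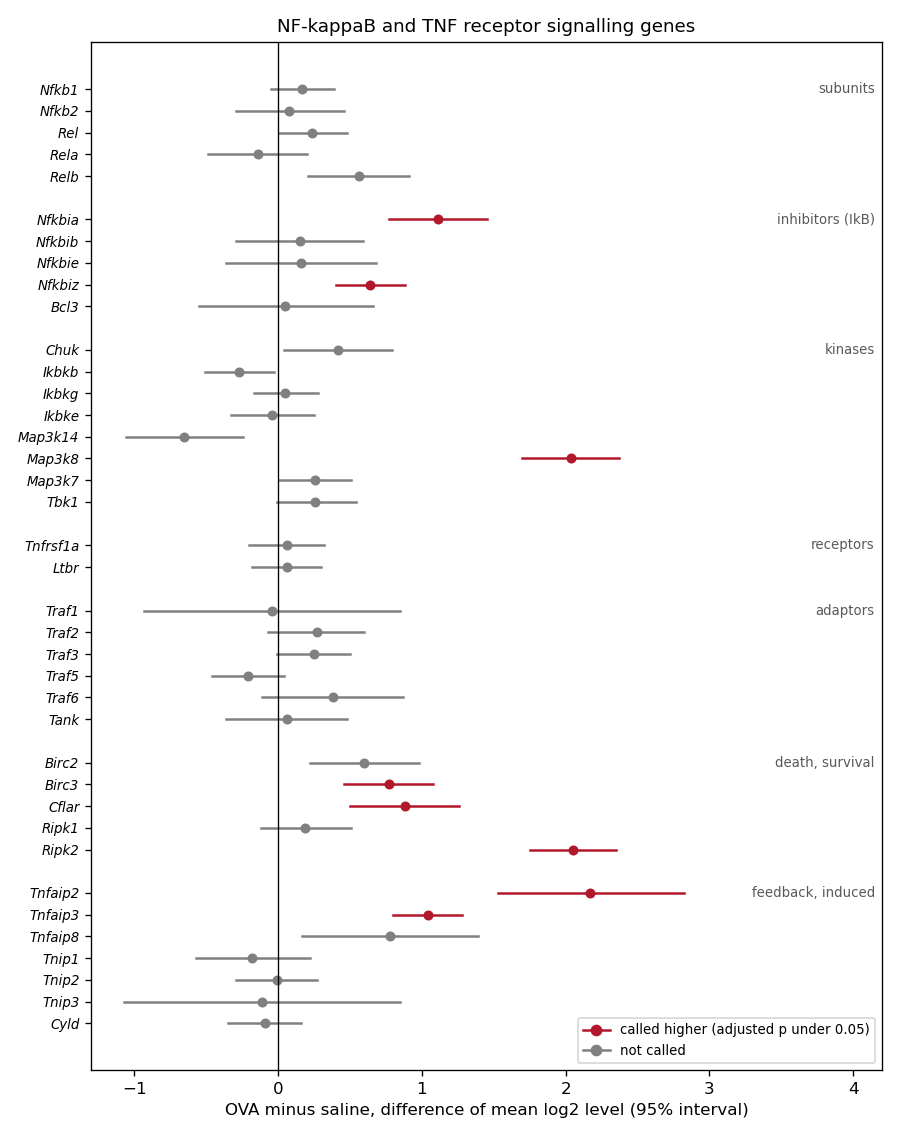
Difference of the mean log2 level between OVA and saline libraries (horizontal axis, with the 95% interval from limma) for each of the 38 genes, ordered by role. The 8 genes called higher are red and sit between 0.64 and 2.17, while most subunits, receptors and adaptors have intervals that hold 0.

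The subunits of NF-kappaB differed little. Nfkb1, which encodes the p50 precursor p105, had levels of 11.52, 11.33 and 11.37 in OVA libraries 1 to 3, against 11.23, 11.30, 11.16 and 11.26 in saline libraries 1 to 4. All OVA values lay above the saline values, by a small step, and the difference of 0.17 (SE 0.10) did not pass the test (limma adjusted p = 0.346). Rela, the p65 subunit with a strong activation domain, stood at 9.82, 9.91 and 10 in OVA and at 9.94, 9.71, 10.26 and 10.30 in saline. Its groups overlapped, with a difference of -0.14 (95% interval -0.49 to 0.20). Relb, the subunit of the non-canonical route, was 9.06, 9.14 and 9.30 in OVA and 8.57, 8.25, 8.66 and 8.93 in saline. The Relb groups did not overlap, yet the difference of 0.56 (SE 0.16) missed the threshold (limma adjusted p = 0.0671). It passed in 6 of 19 other settings, among them a second quantile normalization (0.04) and the omission of saline 4 (0.0201). These settings reuse the same libraries and are not independent checks, here and below. Rel (c-Rel) differed by 0.24 (95% interval 0.01 to 0.48, limma adjusted p = 0.229) and Nfkb2, the p52 precursor, by 0.08 (95% interval -0.29 to 0.46). Thus 0 of 5 subunits were called by limma, and 2 were higher at an unadjusted p under 0.05.

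Among the IkappaB proteins, 2 of 5 rose. Nfkbia, which encodes IkappaB-alpha, the inhibitor that is resynthesised within each round of activation, had levels of 11.66, 11.69 and 11.92 in OVA libraries and 10.52, 10.34, 10.83 and 10.90 in saline libraries. The lowest OVA value exceeded the highest saline value, and the group means were 11.76 ± 0.14 (SD, n = 3) and 10.65 ± 0.26 (SD, n = 4). The difference was 1.11 (SE 0.15), a 2.16-fold higher level (limma adjusted p = 0.00302), and it was called in each of 19 other settings, but not in a test against 1.5-fold (adjusted p = 0.281). Nfkbiz encodes the nuclear IkappaB-zeta, needed for a subset of target genes. Its levels were 11.95, 11.77 and 11.99 in OVA and 11.16, 11.22, 11.30 and 11.39 in saline. Both groups were tight and apart, and Nfkbiz rose by 0.64 (SE 0.11, limma adjusted p = 0.00832), though without OVA 3 the adjusted p was 0.0519.

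The remaining IkappaB genes were not called. Bcl3, a nuclear IkappaB protein that can act with p50 and p52, was 9.61, 9.74 and 9.81 in OVA against 9.58, 8.88, 10.04 and 10.17 in saline. The saline libraries spanned more than the OVA libraries and enclosed them (difference 0.05, 95% interval -0.55 to 0.66). Nfkbib (IkappaB-beta) and Nfkbie (IkappaB-epsilon) differed by 0.15 and 0.16, with 95% intervals of -0.29 to 0.59 and -0.36 to 0.68. For all 5 IkappaB genes saline 3 and 4 both lay above saline 1 and 2.

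Nfkbia and Tnfaip3 are textbook targets of NF-kappaB itself, so promoters of the pathway genes were read, as RefSeq gives them on the build GRCm38.p6. The search was for the kappaB consensus, a 10-base degenerate motif, on both strands of the window of 250 bases before and 50 after each gene start. A match was present in 13 of 32 listed pathway genes with a promoter entry (40.6%), against 9.55% of 27025 genes. It was present in 3 of 5 called genes with an entry and in 10 of 26 that were measured and not called. The pathway genes were listed for their known roles, and a match is a description, not a binding site. The 250 bases before the gene start follow for 3 genes that rose (Nfkbia, Tnfaip3 and Tnfaip2) and for 2 with matches that were not called (Nfkb2 and Tnip1). Capitals mark the matches, merged where they overlap, 5′ to 3′ on the strand of the gene.
Nfkbia, chr12:55492648-55492897, minus strand: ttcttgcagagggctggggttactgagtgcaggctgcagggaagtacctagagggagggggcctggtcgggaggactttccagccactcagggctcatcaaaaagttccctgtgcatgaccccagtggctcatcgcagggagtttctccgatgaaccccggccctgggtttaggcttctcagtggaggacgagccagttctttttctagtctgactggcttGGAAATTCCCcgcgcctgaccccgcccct
Tnfaip3, chr10:19015411-19015660, minus strand: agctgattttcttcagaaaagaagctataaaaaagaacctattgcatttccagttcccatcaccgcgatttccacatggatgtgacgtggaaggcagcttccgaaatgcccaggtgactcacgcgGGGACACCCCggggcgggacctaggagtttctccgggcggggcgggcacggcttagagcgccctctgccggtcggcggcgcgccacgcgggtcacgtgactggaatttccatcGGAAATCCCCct
Tnfaip2, chr12:111442411-111442660, plus strand: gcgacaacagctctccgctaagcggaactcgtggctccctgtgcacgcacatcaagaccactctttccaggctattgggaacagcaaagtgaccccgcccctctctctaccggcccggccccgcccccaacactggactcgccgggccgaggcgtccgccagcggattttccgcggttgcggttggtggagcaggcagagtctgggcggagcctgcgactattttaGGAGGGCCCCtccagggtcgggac
Nfkb2, chr19:46304487-46304736, plus strand: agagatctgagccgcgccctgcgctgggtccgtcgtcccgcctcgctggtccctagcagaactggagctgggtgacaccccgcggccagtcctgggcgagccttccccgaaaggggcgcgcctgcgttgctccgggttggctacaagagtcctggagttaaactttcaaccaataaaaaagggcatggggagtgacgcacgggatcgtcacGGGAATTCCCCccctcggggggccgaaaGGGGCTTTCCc
Tnip1, chr11:54962941-54963190, minus strand: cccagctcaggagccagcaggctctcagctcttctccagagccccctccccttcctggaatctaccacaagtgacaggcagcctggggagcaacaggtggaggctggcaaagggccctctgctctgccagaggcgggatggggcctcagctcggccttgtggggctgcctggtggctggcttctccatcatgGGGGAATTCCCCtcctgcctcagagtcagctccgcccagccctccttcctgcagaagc

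Counted from the gene start, the Nfkbia match begins at base -29, the Tnfaip3 matches at -125 and -12, and the Tnfaip2 match at -24. Birc3 and Cflar, which also rose, held no match in this window, nor did the 1 window listed for Map3k14. The Nfkb2 window shown is 1 of 3 for that gene and the Tnfaip3 window 1 of 2, and the other Tnfaip3 window held no match. Matches therefore occurred in promoters of genes that rose and of genes that were not called.

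Of the 8 kinases, 1 rose, by a wide margin. Map3k8, also known as Tpl2, binds p105 and relays its signal to the MEK and ERK kinases. Its levels were 9.10, 8.83 and 8.95 in OVA, against 7.30, 6.76, 6.82 and 6.81 in saline. Every OVA library stood well above every saline library, and the difference was 2.04 (SE 0.15), or 4.11-fold (limma adjusted p = 8.52e-05). Saline 1 was the highest of its group, and without saline 1 and 2 the difference was 2.15.

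Map3k14, the NF-kappaB inducing kinase that starts the non-canonical route, lay the other way. It was 7.76, 7.67 and 7.91 in OVA libraries and 8.32, 7.99, 8.62 and 8.80 in saline libraries. The groups did not overlap, and the difference of -0.65 (SE 0.18) missed the threshold (limma adjusted p = 0.0694). The Map3k14 difference was called lower in 6 of 19 other settings: second quantile normalization (-0.82, limma adjusted p = 0.00337), cyclic loess (0.00568), array weights (0.00332), the replicate block (0.0433), without saline 2 (0.014) and without saline 1 and 2 together (-0.93, 0.00502). Median centring gave -0.62 (limma adjusted p = 0.1345). Its call therefore depended on how the arrays were scaled and on which saline libraries were kept.

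The 2 catalytic kinases of the IkappaB kinase complex had differences of opposite sign, each past an unadjusted p of 0.05 only. Ikbkb (IKK-beta) was 8.20, 8.13 and 8.37 in OVA and 8.48, 8.43, 8.48 and 8.63 in saline, a difference of -0.27 (limma adjusted p = 0.184). A second quantile normalization called Ikbkb lower (-0.46, limma adjusted p = 0.0244), as did cyclic loess (0.0269) and array weights (0.0388). Chuk (IKK-alpha) was 8.64, 8.75 and 8.64 in OVA and 7.79, 8.29, 8.47 and 8.48 in saline, a difference of 0.42 (limma adjusted p = 0.194), called higher only without saline 3 and 4 together (0.0272). Both pairs of groups were apart, Ikbkb with OVA below and Chuk with OVA above. Map3k7 (TAK1), which activates this complex, differed by 0.26 (95% interval 0.01 to 0.51). The regulatory subunit Ikbkg (NEMO) and the related kinases Ikbke and Tbk1 differed by 0.05, -0.04 and 0.26, with 95% intervals of -0.17 to 0.28, -0.33 to 0.25 and -0.01 to 0.54.

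The TNF receptor measured and the lymphotoxin receptor were nearly level. Tnfrsf1a, the receptor that carries a death domain, was 8.58, 8.82 and 8.73 in OVA, against 8.51, 8.54, 8.74 and 8.80 in saline. The groups overlapped, and the interval of the difference (0.06, 95% interval -0.20 to 0.32) leaves out a change of 1.5-fold. Ltbr, which receives lymphotoxin and drives the non-canonical route, differed by 0.06 (95% interval -0.18 to 0.30). Neither was called, and neither had an unadjusted p under 0.05.

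Of the 6 adaptors behind these receptors, 0 were called by limma, and 0 had an unadjusted p under 0.05. The ubiquitin ligases Traf2, Traf3 and Traf6 differed by 0.27, 0.25 and 0.38, with 95% intervals of -0.07 to 0.60, -0.01 to 0.50 and -0.11 to 0.87, and Traf6 was called higher without saline 3 and 4 together (0.75, limma adjusted p = 0.00443). Traf5 was lower in all OVA libraries (6.25, 6.38 and 6.40) than in saline (6.71, 6.41, 6.48 and 6.61), by 0.21 (limma adjusted p = 0.306). Its groups barely parted, at 6.40 against 6.41. These levels were near the negative control medians of 6.04 to 6.17 in OVA and 5.86 to 5.95 in saline. Tank, an adaptor of the kinase Tbk1, differed by 0.06 (95% interval -0.36 to 0.48). Traf1, itself a known NF-kappaB target, had the second widest spread of the 38 genes among saline libraries, at 8.29 and 8.13 in saline 3 and 4 and 6.93 and 6.57 in saline 1 and 2. Its OVA values of 7.06, 7.64 and 7.62 lay between them. The Traf1 difference was -0.04 (SE 0.40) with all libraries and 0.69 (limma adjusted p = 0.0442, called higher) without saline 3 and 4 together. Without saline 1 and 2 together it was -0.77 (limma adjusted p = 0.0515, not called), so its sign depended on which saline libraries were kept.

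Of the 5 genes grouped as death and survival regulators, with Ripk2 counted among them, 3 rose. Ripk2, the kinase that links the receptors NOD1 and NOD2 to NF-kappaB, was 9.13, 9.25 and 9.42 in OVA, against 7.30, 7.37, 7.28 and 6.93 in saline. The gap between the groups was far wider than the spread inside them, and Ripk2 rose by 2.05 (SE 0.13), or 4.13-fold (limma adjusted p = 3.92e-05). Ripk1, the kinase of the TNF receptor complex, differed by 0.19 (95% interval -0.12 to 0.51) with overlapping groups.

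Cflar encodes c-FLIP, which blocks caspase-8. It was 11.50, 11.32 and 11.21 in OVA and 10.26, 10.13, 10.70 and 10.76 in saline. The groups did not overlap, and the rise of 0.88 (SE 0.17, limma adjusted p = 0.0155) had adjusted p values of 0.0724, 0.0681 and 0.0555 without OVA 1, 2 and 3. The other 2 Cflar probe sets differed by 0.97 and 0.85, also with every OVA value above every saline value.

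Birc3 and Birc2 encode the ubiquitin ligases cIAP2 and cIAP1, which act at the TNF receptor and, with Traf2 and Traf3, keep the Map3k14 protein low. Birc3 was 11.66, 11.71 and 11.62 in OVA and 10.72, 10.66, 11.08 and 11.13 in saline, a rise of 0.77 (SE 0.14, limma adjusted p = 0.0113). The Birc3 groups were apart, and its adjusted p was 0.0641 without OVA 2 and 0.0543 without OVA 3. Birc2 was 8.78, 9.31 and 9.18 in OVA and 8.13, 8.65, 8.66 and 8.53 in saline. These groups were apart as well, but the Birc2 difference of 0.60 (SE 0.17) was not called (limma adjusted p = 0.0749). Birc2 was called with array weights (0.0129), with the replicate block (0.0191) and without saline 3 and 4 together (0.0432).

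Feedback and TNF-induced genes rose in 2 of 7 cases. Tnfaip3 encodes A20, a ubiquitin-editing enzyme that ends signalling from TNF and Toll-like receptors. It was 12.13, 11.99 and 12.07 in OVA and 11.04, 10.88, 10.99 and 11.19 in saline. The spread inside each group was small (SD 0.07 in OVA, 0.13 in saline), and the rise of 1.04 (SE 0.11), or 2.05-fold, was called (limma adjusted p = 0.000702), as in each of 19 other settings, but not in a test against 1.5-fold. Tnfaip2, a TNF-induced gene linked to the growth of membrane protrusions, was 9.36, 9.09 and 9.76 in OVA against 6.79, 6.71, 7.53 and 7.89 in saline. Its difference was the largest of the 38 genes with all libraries, 2.17 (SE 0.29), or 4.51-fold (limma adjusted p = 0.00247). Saline 3 and 4 lay above saline 1 and 2 and below every OVA library, and without saline 1 and 2 the difference was 1.69.

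The A20 partners were not called. Tnip1 and Tnip2, which bind A20, differed by -0.18 and -0.01, with 95% intervals of -0.57 to 0.22 and -0.29 to 0.27. Tnip3 was 5.81, 5.52 and 5.77 in OVA, under the negative control medians, and 5.33, 5.41, 5.25 and 7.25 in saline. A single saline library thus stood apart, and the Tnip3 difference of -0.11 has a 95% interval of -1.07 to 0.85. Cyld, a deubiquitinase that also dampens the pathway, differed by -0.09 (95% interval -0.35 to 0.16). Tnfaip8, a TNF-induced gene, was 9.35, 9.55 and 9.49 in OVA and 8.18, 8.17, 9.09 and 9.29 in saline. The Tnfaip8 groups did not overlap, but its difference of 0.78 (limma adjusted p = 0.143) came to 0.27 without saline 1 and 2 and to 1.29 without saline 3 and 4, where it was called (0.000369).

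**Figure D2:**
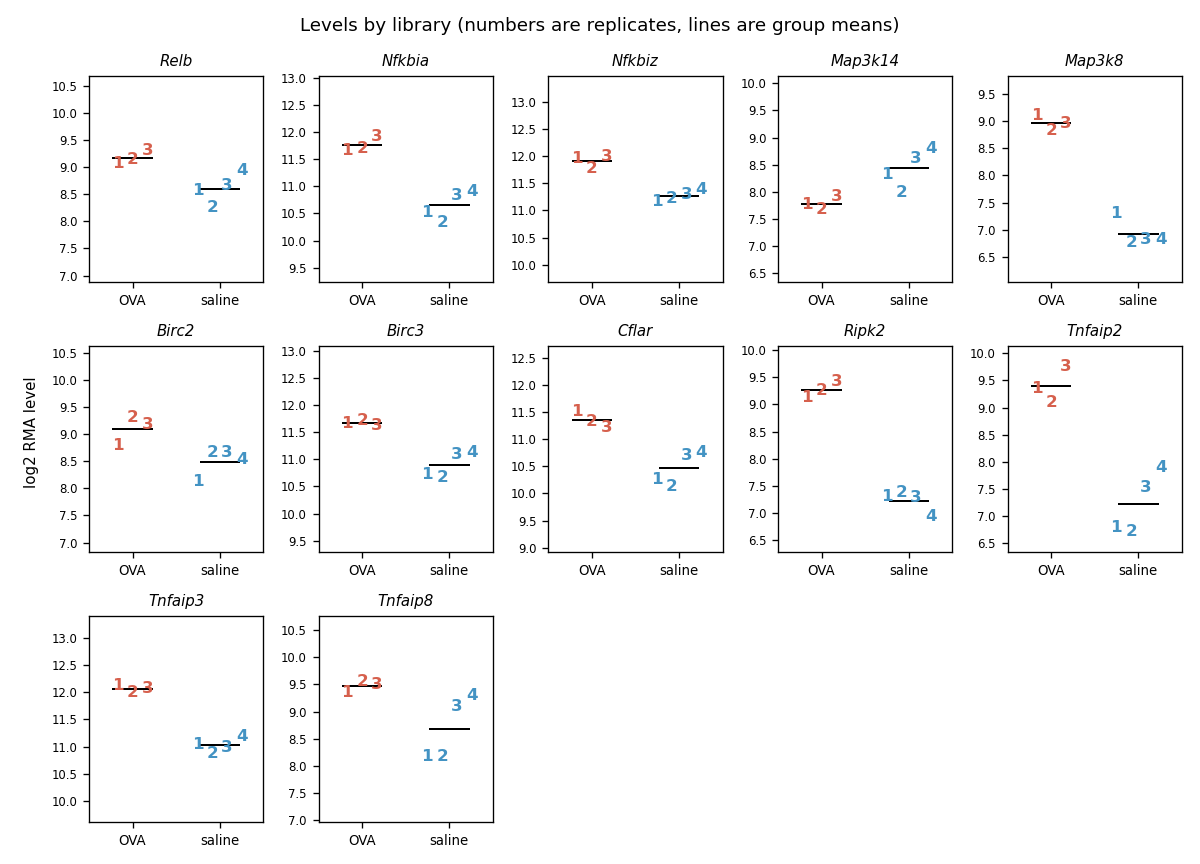
Log2 RMA level of 12 pathway genes (vertical axis, the same span in every panel) in OVA and saline libraries. Each digit is a library at its replicate number, and the line is the group mean. Map3k8, Ripk2 and Tnfaip2 show the widest gaps, Map3k14 is lower in OVA, and for Tnfaip8 saline 3 and 4 lie far above saline 1 and 2.

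The saline libraries varied more than the OVA libraries in these genes. The median SD of the 38 genes was 0.11 among OVA libraries and 0.25 among saline libraries, where all genes had medians of 0.13 in OVA and 0.18 in saline. In 23 of the 38 genes (60.5%) saline 3 and 4 both exceeded saline 1 and 2, against 22.8% of all genes. In 1 (Ripk2) both lay under them. With all libraries, 964 of all genes were called higher and 212 lower. With saline 1 and 2 left out, 8 pathway genes were higher and 1 lower, and over all genes 817 and 405. With saline 3 and 4 left out, 14 pathway genes were higher and 0 lower, and over all genes 2191 and 987. The 8 called genes kept their sign and stayed at a difference of at least 0.54 in each setting run on them, with the lowest value belonging to Nfkbiz.

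**Figure D3:**
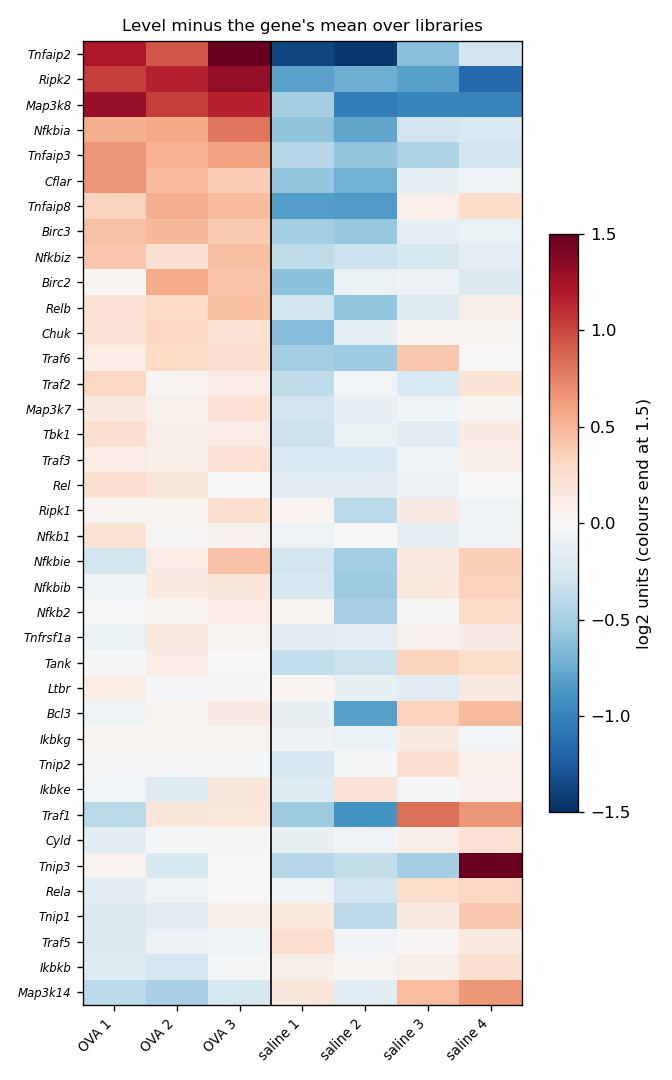
Level of each of the 38 genes in each library minus the mean of that gene over the 7 libraries (colour, log2 units), with genes in order of their OVA minus saline difference and OVA libraries on the left. The top rows are red in all OVA libraries, and in most rows saline 3 and 4 are warmer than saline 1 and 2. Tnip3 is high in saline 4 alone.

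The wider pathway was described through 4 further lists. Over all genes, 5.3% were called higher and 1.17% lower. At an unadjusted p under 0.05 these shares were 12.9% and 7.84%. Of 17 TNF family ligands, 0 were called by limma, and at an unadjusted p under 0.05 there were 0 higher and 2 lower (median difference -0.10). Ltb, one chain of the ligand of Ltbr, was 11.90, 11.77 and 11.73 in OVA and 12.36, 11.82, 12.55 and 12.70 in saline. All OVA values but 1 lay under the saline range, and the Ltb difference of -0.56 (limma adjusted p = 0.135) was called lower without saline 2 (-0.74, 0.00971), without saline 1 and 2 together (0.00599) and with array weights (0.00822). Tnfsf14 (LIGHT), another Ltbr ligand, differed by -0.49 (limma adjusted p = 0.334).

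Of 24 other receptors of the TNF family, 0 were called higher and 1 lower. At an unadjusted p under 0.05, 1 was higher and 6 were lower (median difference -0.15), where 12.9% of all genes were higher and 7.84% lower. Tnfrsf9 (4-1BB), a costimulatory receptor, was 7.07, 7.31 and 7.45 in OVA, against 7.99, 7.60, 8.10 and 7.77 in saline. The groups were apart, but Tnfrsf9 fell by 0.59, a difference (limma adjusted p = 0.0466) that sat at the threshold and was called in 10 of 19 other settings, with adjusted p values of 0.114, 0.0938, 0.16, 0.151 and 0.0927 without saline 1, saline 3, OVA 1, OVA 2 and OVA 3. Relt and Tnfrsf12a differed by -0.50 and 0.37 and were not called (limma adjusted p = 0.135 and 0.0641). Without saline 1 and 2 together Relt was called lower (-0.76, limma adjusted p = 0.0141).

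Of 50 further adaptors and enzymes, 2 were higher and 1 lower, where 5.3% of all genes were called higher and 1.17% lower. At an unadjusted p under 0.05, 9 were higher and 2 lower (median difference 0.10), where 12.9% of all genes were higher and 7.84% lower. Malt1 encodes a protease that cleaves A20. It was 9.42, 8.99 and 9.27 in OVA and 7.91, 8.31, 8.39 and 8.27 in saline, and Malt1 rose by 1.01 (SE 0.15, limma adjusted p = 0.00435). The groups were apart.
Nod1, a receptor that signals through Ripk2, was 7.77, 7.91 and 8.22 in OVA against 8.48, 8.54, 8.51 and 8.34 in saline. It fell by 0.50 (limma adjusted p = 0.0475) and was called in 10 of 19 other settings, with adjusted p values of 0.101, 0.0853, 0.0957, 0.16 and 0.193 without saline 1, 2 and 3 and OVA 1 and 2, and 0.133 without saline 1 and 2 together. Nfkbid and Nkiras1 differed by 0.83 and 0.63 and were not called with all libraries (limma adjusted p = 0.0843 and 0.217). Both were called higher without saline 4 (0.012 and 0.00361).

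Of 57 genes known as NF-kappaB targets in other cells, 15 were higher and 4 lower, where 5.3% of all genes were called higher and 1.17% lower. Their median difference was 0.14, where all genes had -0.07. Many of these genes are also controlled by other factors. Il6, a cytokine, was 10.92, 11.19 and 10.83 in OVA and 8.40, 6.85, 8.92 and 9.45 in saline. The groups were apart, and Il6 rose by 2.58 (SE 0.50, limma adjusted p = 0.0153), with 1.79 without saline 1 and 2, and with adjusted p values of 0.0599, 0.0757 and 0.072 without OVA 1, 2 and 3. Cd69, an early activation marker, was 8.97, 9.37 and 9.19 in OVA and 6.67, 6.14, 7.10 and 7.36 in saline, a rise of 2.36 (SE 0.26, limma adjusted p = 0.00091). Cxcl10, a chemokine, was 9.34, 9.22 and 9.72 in OVA and 7.33, 6.61, 7.28 and 7.82 in saline, a rise of 2.17 (SE 0.25, limma adjusted p = 0.00124). Bcl2l1, the survival gene that encodes BCL-XL, was 10.35, 10.47 and 10.08 in OVA and 8.78, 8.41, 8.56 and 8.44 in saline. Bcl2l1 rose by 1.75 (SE 0.13, limma adjusted p = 0.000117), and its groups were apart.

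Of the 4 targets called lower, Vcam1 (-0.74) and Tgm2 (-0.46) had the smaller differences. Myc, a growth regulator, was 7.32, 8.22 and 8.44 in OVA and 9.76, 9.63, 9.76 and 9.87 in saline, and fell by 1.76 (SE 0.23, limma adjusted p = 0.00235). Mmp9, a gelatinase, was 8.05, 8.43 and 8.31 in OVA and 9.77, 9.18, 9.88 and 10.19 in saline, and fell by 1.49 (SE 0.21, limma adjusted p = 0.00369). No OVA value of either gene reached the saline range. Csf1 and Junb differed by 1.04 and 0.72 and were not called (limma adjusted p = 0.0686 and 0.0529). Each of the last 2 was called higher in 8 of 19 other settings, among them without saline 4 (0.034 for Csf1, 0.0339 for Junb), without saline 3 (0.0395 for Csf1) and without saline 2 (0.0177 for Junb).

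**Figure D4:**
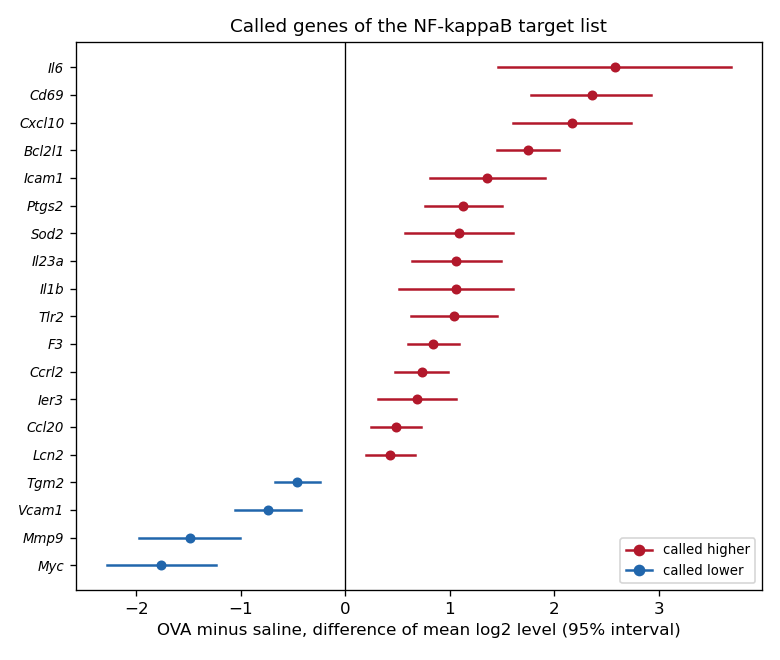
Difference of the mean log2 level between OVA and saline libraries (horizontal axis, with the 95% interval from limma) for the 19 called genes of the NF-kappaB target list. The 15 called higher lie between 0.43 (Lcn2) and 2.58 (Il6), and the 4 called lower between -0.46 (Tgm2) and -1.76 (Myc).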

How the data were processed

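RNA from sorted lung eosinophils was measured on 1 microarray per library (mouse gene 1.0 ST array, per the file headers). The deposited values are log2 levels made by the authors with RMA, per the submitters' processing notes, which state no version. This procedure subtracts background and brings arrays to 1 distribution, so a shift shared by most genes is largely removed. The annotated table gave gene symbols; its 7 value columns match no sample label and were not used. Of 35557 probe sets 19757 carried a symbol, which gave 18195 genes after keeping the brightest probe set of each; older symbols of 4 further lists and the marker lists were matched through a RefSeq gene table (GRCm38.p6).

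Groups were compared with limma 3.58.1 (R 4.3.3), lmFit and eBayes with group as the only term, with 2-sided p-values adjusted by Benjamini-Hochberg over all 18195 genes. The procedure was tested on simulated data. The number of arrays limits the precision. The 20 alternatives covered scaling, filtering of dim genes, variance model, array weights, probe set choice and symbols. They also covered left-out libraries, the replicate block and a test against 1.5-fold. For a gene with a single probe set, the filtering, variance model, probe set and symbol settings left the difference itself unchanged. The replicate block gave the same differences as leaving out saline 4 (1.19 for Nfkbia in each). Pathway genes, lists and tests were chosen with earlier results of these data known. Values of every library were given for pathway genes that were called, that differed by at least 0.5 without overlap, or that are central to the pathway (Nfkb1, Rela, Nfkbia, Tnfaip3, Tnfrsf1a); Bcl3, Ikbkb, Chuk, Traf1, Traf5 and Tnip3 were shown in the same way after their values were seen. Of each further list, up to 6 called genes and the 2 largest uncalled differences were named; 1 called gene of these lists is not reported here.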

Additional observations from a re-analysis of the deposited data

Results flagged for a closer look

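Chance flags about 1 in 20 groups of 4, and 3 of the 56 genes described here had a saline library far from the other 3, where 5.81% of all genes did. Map3k8 was 7.30 in saline 1 against 6.76 to 6.82 in the other saline libraries, still far under the OVA values of 8.83 to 9.10. Tnip3 was 7.25 in saline 4 against 5.25 to 5.41 in the others. Junb was 7.60 in saline 2 against 8.28 to 8.42 in the others.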

How the results depend on the processing

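The 8 pathway genes called higher kept their sign in each alternative. The number higher was 14 without saline 3 and 4 together and 3 in a test against 1.5-fold, and between 5 and 10 when single libraries were left out. It stayed at 8 to 11 in the other settings. The number lower was 2 after second quantile normalization, cyclic loess or array weights, 1 without saline 1 and 2 together, and 0 to 1 without single libraries. With the replicate number as a block (replicate block) 11 pathway genes were higher and 1 lower. The labels share the numbers 1 to 3 between groups, but deviations from the group means correlated at 0.273, -0.137 and 0.24 for same-numbered libraries, no library of OVA correlated best with its own number, and the numbers were not taken to pair the samples. Traf1, not called and at -0.04 with all libraries, was called higher without saline 3 and 4 together (0.69). Without saline 1 and 2 together Traf1 was at -0.77 and not called. Over all genes, the count higher was 1650 with array weights, 2191 without saline 3 and 4, 102 against 1.5-fold, and 373 to 1221 without single libraries. The count lower was 512 after second quantile normalization, 122 after median centring, 473 after cyclic loess, 679 with array weights, 405 without saline 1 and 2, 987 without saline 3 and 4, 7 against 1.5-fold, and 67 to 269 without single libraries. Of the 146 genes in the 4 further lists, 17 were higher and 6 lower. Their count higher was 28 with array weights, 34 without saline 3 and 4, 3 against 1.5-fold and 9 to 24 without single libraries. Their count lower was 10 after second quantile normalization or with array weights, 1 against 1.5-fold, and 2 to 6 without single libraries. The cause of these shifts was not tested. Levels near the negative control medians, such as those of Tnip3, bound what could be detected.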
